A study of Saccharomyces cerevisiae with 7 samples.

Results

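The same valine of Prp8 was replaced by aspartate in the strain prp8-V1860D and by asparagine in the strain prp8-V1860N, and the lariat libraries of these strains were compared directly. The comparison used 2 of the 7 libraries, 1 a strain, and had 2174942 lariat reads in prp8-V1860D and 2288752 in prp8-V1860N. The members compared were 280 annotated introns of 270 genes, of which 277 had a read in either strain, and 72544 of the 174421 tabulated combinations of a 5' splice site with a branch point, here called pairs. Both are Saccharomyces cerevisiae of mating type a in which the chromosomal PRP8 is replaced by LYS2 and the only copy of the gene sits on the plasmid pRS313. Both also carry the dbr1::Kan disruption and his3, leu2, ura3 and lys2 alleles, and were grown at 30 C in rich media. PRP8-WT, with the same deletions and a wild-type plasmid copy, is cited for background levels only. Whole-cell RNA was freed of ribosomal RNA and digested with RNase R, an exonuclease that leaves lariats and other circular RNA, before sequencing.

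Prp8 is the protein at the centre of the spliceosome that holds the catalytic RNA core, and the exchanged valine lies in its RNaseH domain. In the first step of splicing the branch point adenosine attacks the 5' splice site and the intron becomes a lariat, which the debranching enzyme Dbr1 would otherwise open. Aspartate and asparagine have side chains of similar size, but aspartate is acidic and asparagine carries a neutral amide. PRP8 has no annotated intron in these tables, so the alleles themselves could not be checked from lariat reads.

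A lariat read spans the junction between the start of an intron and its branch point. A read was annotated when both ends matched an annotated intron, with the branch point within 2 nt. It was aberrant when the branch point matched but the 5' splice site lay more than 5 and less than 1000 nt away. Each strain has 1 library, so no difference between them has a replicate check and no test was made. Intervals are exact 95% intervals and cover counting error only. The spread between samples was measured in another strain, prp8-N1869D, which carries the same deletions and another allele of the RNaseH domain. It has 1 sample of 1222720 reads and a second sample of 2 technical libraries of 713781 and 652680 reads, so these comparisons are shallower.

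The sites below are those the results on aberrant reads turn on: sites with large differences between the strains, sites with many aberrant reads, and 1 site without GT. Each is shown as 20 bases with the first 6 bases of the intron in capitals, from the RefSeq reference of build R64 and on the strand of the gene. GTATGT is the common yeast sequence.
RPL19B annotated (chromosome II, 168425, plus): gaaaatGTATGTttaacagt
RPL19B aberrant (168601): aagcttGTACGAattgccgc
RPL42A annotated (chromosome XIV, 331326, plus): aaatggGTATGTtataacca
RPL42A aberrant (331453): gcaactGTATAAtctgcgcc
RPS23A annotated (chromosome VII, 727039, plus): aaacaaGTATGTtgactatt
RPS23A aberrant (727204): taaaaaGTAATGaatagtga
RPL22A annotated (chromosome XII, 263206, plus): ccaaacGTATGAtactttaa
RPL22A aberrant (263328): aaaaatGTACGAaacgaaga
RPL22B annotated (chromosome VI, 64920, minus): ccaaacGTACGTtaattttc
RPL22B aberrant (64856): taaaaaGTTTGTctattcct
RPL24B annotated (chromosome VII, 788178, minus): tgaaacGTATGTcgcgtgcc
RPL24B aberrant (788015): agaaaaGTACATgcgaataa
RPL16B annotated (chromosome XIV, 494973, minus): ttgatgGTACGTaaaaaatt
RPL16B aberrant, inside (494632): caaaaaGTAATGgtaacttc
RPL16B aberrant, upstream (495972): ctccagGTGTATggaattta
NHP6B annotated (chromosome II, 426873, minus): cgcaaaGTATGTaaggcgct
NHP6B aberrant (426630): caagttGTAAGTcaggactc
RPS26A annotated (chromosome VII, 148966, minus): taagtaGTATGTtaacgaca
RPS26A aberrant (148767): cccatcGTATGCaatgtact
RPS21B annotated (chromosome X, 157249, minus): caattaGTACGTaaattata
RPS21B aberrant (157160): agaaaaATAAAAttataata

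The first comparison asked whether the strains excised the annotated introns in the same proportions. Annotated reads numbered 1842086 in prp8-V1860D and 1949898 in prp8-V1860N. Of the 253 introns whose reads in both libraries summed to 50 or more, 5 took a share of annotated reads at least 1.5-fold higher in prp8-V1860D, which is 1.98% of those compared, and 6 a share at least 1.5-fold lower, 2.37%, so that 11 in all, 4.35%, were past the fold. Between the prp8-N1869D samples 31 of 254 introns were past it, 12.2%, with 23 higher in sample 1, 9.06%, and 8 lower, 3.15%, and between the technical libraries 17 of 245, 6.94%. The SD of the log2 ratio of shares was 0.28 between the aspartate and asparagine strains, 0.41 between the prp8-N1869D samples and 0.32 between the technical libraries. By these counts and SDs the annotated lariats of the aspartate and asparagine strains were no farther apart than those of replicate samples of 1 strain. Pearson's r of log2 counts across the introns, which are not independent replicates, was 0.995 for the aspartate and asparagine libraries and 0.985 for the prp8-N1869D samples.

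**Figure D1:**
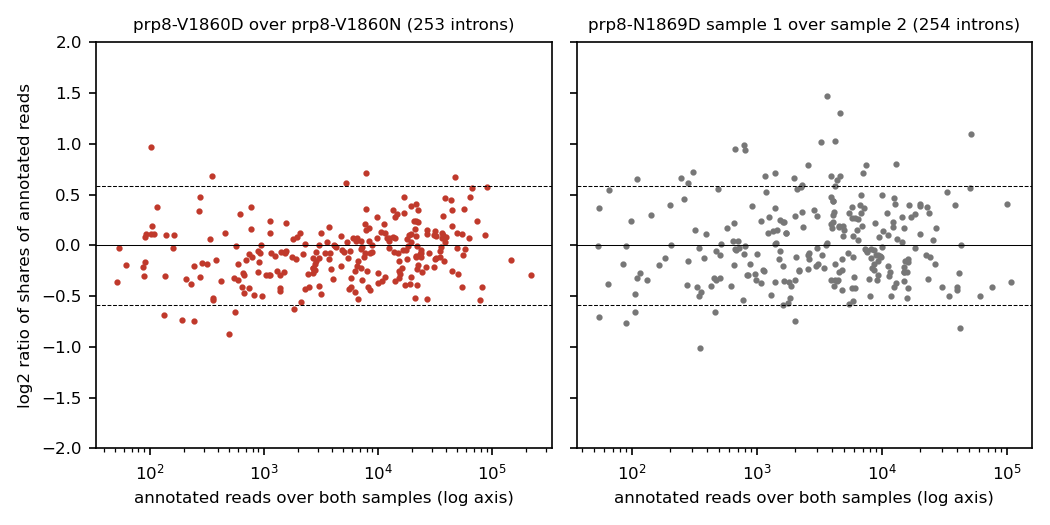
Log2 ratio of the share of annotated reads per intron against the reads over both samples, for prp8-V1860D over prp8-V1860N (left, 253 introns) and prp8-N1869D sample 1 over sample 2 (right, 254 introns). Each point is 1 intron and dashed lines mark 1.5-fold, which 11 introns pass on the left and 31 on the right.

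The 5 introns past the fold that were higher in prp8-V1860D had loops of 48 to 79 nt from 5' splice site to branch point and lay outside ribosomal protein genes. The 6 lower introns also lay outside those genes, and 5 of them had loops of up to 100 nt. Of the 253 introns compared, 109 had such loops and 150 lay outside ribosomal protein genes. Both traits were thus more common in the higher and the lower introns than over all, but did not set the higher apart from the lower. BIG1, which acts in synthesis of cell wall glucan, had 67 annotated reads in prp8-V1860D and 36 in prp8-V1860N. YBR062C had 4786 and 3088. TAF14, a subunit shared by several transcription complexes, had 28900 and 19116. Per 10000 annotated reads, TAF14 stood at 157 in prp8-V1860D and 98.0 in prp8-V1860N, and a log2 ratio of 0.68 (0.65 to 0.70). REC114, whose protein is needed for meiotic double-strand breaks, stood at 16.8 and 10.9 per 10000 and NCE101 at 1.16 and 0.723. The next in order were PRE3, the gene of a catalytic subunit of the proteasome, with 287 and 192 per 10000, then NYV1, a vacuolar SNARE gene, RPS16A, YNL050C and the first intron of YOS1, all under 1.5-fold. These introns also moved between the prp8-N1869D samples: all 5 past the fold were lower in sample 1 than in sample 2, TAF14 at 136 and 192 per 10000 and YBR062C at 22.4 and 32.7. That direction has no meaning of its own, since the order of the samples is arbitrary.

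The introns lower in prp8-V1860D had few annotated reads. SRB2, a Mediator subunit gene, had 170 annotated reads in prp8-V1860D and 329 in prp8-V1860N, a log2 ratio of -0.87 (-1.15 to -0.60). YML6, which encodes a mitochondrial ribosomal protein, had 694 and 1138, and UBC13, a ubiquitin-conjugating enzyme gene, had 212 and 353. IAI11 had 88 and 157, RCF3, whose protein is tied to respiratory complexes, 69 and 122, and NMD2, a factor of nonsense-mediated decay, 49 and 84. For RCF3 these were a small part of its lariats. Other branch points of its 5' splice site had 9674 reads in prp8-V1860D and 10114 in prp8-V1860N, or 99.3% and 98.8%. Its lower share therefore holds for the annotated branch point only. In both prp8-N1869D samples SRB2 had 159 reads, at 1.60 and 1.44 per 10000, whereas IAI11 stood at 1.65 and 1.08, past 1.5-fold. QCR9, YDL012C, RPL2A and RPP1B followed under the fold, with RPL2A, a large subunit protein gene, at 168 and 243 per 10000. Where each library had at least 1000 reads, a limit chosen after the values were seen, 3 of 170 introns were past 1.5-fold, 1.76%, all higher in prp8-V1860D, beside 12 of 148 between the prp8-N1869D samples, 8.11%, and 2 of 116 between the technical libraries, 1.72%.

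Across introns the ratios of the aspartate and asparagine strains ran partly along the same line as those of the replicate samples. For 251 introns with 50 reads in each pair, Pearson's r between the log2 ratio of prp8-V1860D over prp8-V1860N and that of prp8-N1869D sample 1 over sample 2 was -0.34, and it was -0.45 for the 147 introns with 1000 reads in each of those samples. No library is shared by these ratios, and introns of 1 library share its depth and preparation. Introns with a loop of up to 100 nt took 19.3% of annotated reads in prp8-V1860D and 16.9% in prp8-V1860N, and 24.7% and 30.6% in the prp8-N1869D samples. Introns with a loop of over 200 and up to 400 nt took 53.7% and 55.2%, and 46.7% and 42.4%. Loop length therefore separated the replicate samples by more than it separated the alleles.

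Gene groups, chosen with earlier results of these data known, had median log2 ratios of annotated share from -0.24 to 0.28. Ribosomal protein introns held 65.7% of annotated reads in prp8-V1860D (65.6 to 65.8) and 66.8% in prp8-V1860N (66.7 to 66.9), and 59.4% and 55.2% in the prp8-N1869D samples. Of 59 large subunit introns 0 were past 1.5-fold in either direction, with a median log2 ratio of -0.03, and of 44 small subunit introns with 50 reads also 0, with a median of -0.03, beside -0.07 over all 253. Among the most read, RPS30B had 67405 and 78699 reads and RPL2A 30866 and 47430. The hosts of intronic snoRNAs had a median of -0.24 over 10 introns, actin and tubulin genes -0.21 over 10, with ACT1 at 17502 and 18709 reads, and proteasome and ubiquitin genes -0.21 over 9, with UBC13 past the fold and lower in prp8-V1860D. In summed reads the proteasome and ubiquitin genes went the other way, with 4.15% of annotated reads in prp8-V1860D and 3.35% in prp8-V1860N, most of them from PRE3 with 52780 and 37496. Splicing and cap-binding genes had -0.15 over 12. Most of their reads came from SNR17A, a gene of the U3 snoRNA, at 95769 and 124192. Genes of self-regulated splicing had -0.19 over 8, vesicle traffic genes -0.12 over 14, genes with 2 introns -0.01 over 15, vacuolar ATPase genes 0.28 over 3 and meiotic genes -0.14 over 4, of which REC114 was past the fold.

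The strength of the splice signals made no visible division. Introns with the 5' splice site GTATGT had a median log2 ratio of -0.07 over 202 introns and those with another sequence -0.07 over 51. Introns with the branch sequence TACTAAC had -0.07 over 214 and the others -0.10 over 39. Of annotated reads, 83.5% in prp8-V1860D and 83.4% in prp8-V1860N came from GTATGT introns.

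The second comparison asked how often each strain branched at an aberrant 5' splice site. Pooled over introns, the aspartate strain did so less often in its library than the asparagine strain. It had 6085 aberrant reads, or 0.329% of aberrant plus annotated reads (0.321 to 0.338), and prp8-V1860N had 7740, or 0.395% (0.387 to 0.404). The fold was 0.833 (0.805 to 0.861). PRP8-WT stood at 0.419% (0.412 to 0.426). Per annotated read, the prp8-N1869D samples differed by 0.9504 and the technical libraries by 0.970, so the pooled rate of the aspartate and asparagine strains differed by more than either.

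That order was less clear once introns were weighted alike. With each intron weighted by its annotated reads in prp8-V1860N, a calculation chosen after the values were seen, aberrant reads per 100 annotated were 0.361 in prp8-V1860D and 0.397 in prp8-V1860N, a ratio of 0.910. For the other pairs of libraries the weights were annotated reads in prp8-N1869D sample 2 and in technical library 2. The ratio was 0.764 between the prp8-N1869D samples, 0.870 without NHP6B, and 0.956 between the technical libraries. Part of the pooled difference thus went with the introns that supplied annotated reads, and the weighted difference was smaller than that between replicate samples.

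By intron, 60 had at least 20 aberrant reads over both libraries. The ratio of aberrant to annotated reads was at least 1.5-fold lower in prp8-V1860D in 14 of them, 23.3% of those compared, and at least 1.5-fold higher in 5, 8.33%. Between the prp8-N1869D samples the same rule gave 12 lower, 27.9%, and 5 higher, 11.6%, of 43, and between the technical libraries 3, 12%, and 3, 12%, of 25. The share past the fold was thus no larger than between replicate samples. The median log2 ratio was -0.31, with 44 introns below 0 and 16 above, and it was -0.12 between the prp8-N1869D samples. Counting intervals lay below no difference in 12 introns and above it in 1, and in the prp8-N1869D samples, where the order is arbitrary, below in 13 and above in 4. The other 220 introns had fewer aberrant reads: 76 had 0 in both libraries, and 144 had 1 to 19, with 371 reads in prp8-V1860D and 484 in prp8-V1860N.

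**Figure D2:**
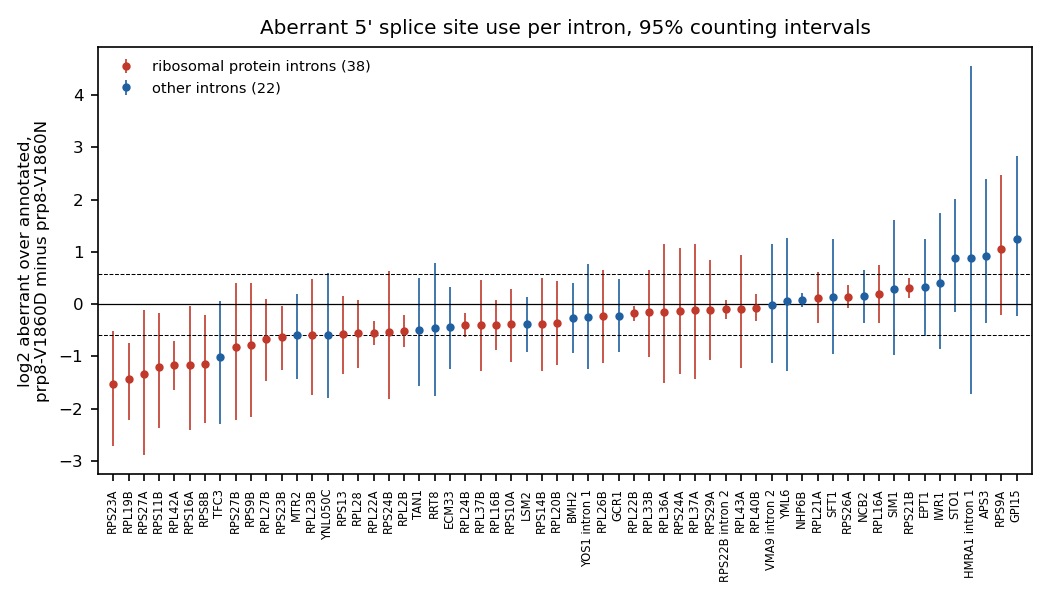
Log2 ratio of aberrant to annotated reads in prp8-V1860D minus that in prp8-V1860N for the 60 introns with at least 20 aberrant reads, with exact 95% counting intervals of the odds ratio. Dashed lines mark 1.5-fold, and 33 of the 38 ribosomal protein introns and 11 of the 22 others lie below 0.

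The introns with lower aberrant use in prp8-V1860D were mostly those of ribosomal protein genes. Of the 38 ribosomal protein introns 33 were below 0, with a median of -0.39, and of the 22 others 11 were below and 11 above, with a median of 0.03. All 12 introns whose interval lay below no difference encode ribosomal proteins, 6 of the large subunit and 6 of the small, and so does the 1 above. The difference between ribosomal and other introns was not tested, and no such split of the prp8-N1869D samples is given here. Whether an interval excludes no difference also depends on the number of reads. Summed over its introns, the large subunit list had 0.370% aberrant reads in prp8-V1860D (0.355 to 0.385) and 0.506% in prp8-V1860N (0.489 to 0.523). The small subunit list had 0.317% (0.302 to 0.331) and 0.322% (0.308 to 0.336), with 1 intron 1.5-fold higher and 8 lower, and its sum holds the RPS21B reads described below. Introns outside ribosomal protein genes had 0.301% (0.288 to 0.315) and 0.353% (0.339 to 0.368).

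Among large subunit genes, RPL19B had 23 aberrant beside 4947 annotated reads in prp8-V1860D and 63 beside 4968 in prp8-V1860N. This is 0.463% (0.294 to 0.694) and 1.25% (0.964 to 1.60), a log2 ratio of -1.43 (-2.21 to -0.74). The prp8-N1869D samples lay close together at 1.30% and 1.26%, both near the asparagine strain. At its aberrant site shown above, PRP8-WT had 0.238%, near the 0.222% of prp8-V1860D. There prp8-V1860N had 0.858% and the prp8-N1869D samples 0.652% and 0.894%. RPL42A had 60 aberrant reads beside 24659 and 112 beside 20484, or 0.243% (0.185 to 0.312) and 0.544% (0.448 to 0.654). Its prp8-N1869D samples had 0.381% and 0.547%, a narrower gap. At its aberrant site shown above, however, those samples had 0.231% and 0.446%. That is about as far apart as the 0.223% of prp8-V1860D and the 0.457% of prp8-V1860N there. RPL22A, whose protein limits the splicing of its own transcript, had 290 beside 6211 and 426 beside 6250, or 4.46% (3.97 to 4.99) and 6.38% (5.81 to 6.99), and the prp8-N1869D samples 7.82% and 7.53%. Over the whole intron the alleles lay farther apart than the replicate samples in these 3. The 3 were picked from introns whose interval between the alleles excluded no difference, which favours that outcome.

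The other 3 large subunit introns with an interval below no difference varied between replicate samples as well, RPL22B and RPL24B by more than between the alleles. RPL22B, the paralogue of RPL22A, had 795 aberrant beside 3109 annotated reads in prp8-V1860D and 1200 beside 4163 in prp8-V1860N, or 20.4% (19.1 to 21.7) and 22.4% (21.3 to 23.5). The prp8-N1869D samples gave 25.4% and 37.3%. RPL24B had 1.06% (0.930 to 1.20) and 1.39% (1.27 to 1.52), and 1.14% and 0.512% in the prp8-N1869D samples. RPL2B had 2.11% (1.79 to 2.47) and 2.98% (2.60 to 3.395), and 5.06% and 6.40%. The handling of reads that fit more than 1 gene copy is not described in the labels or headers. Lariat reads carry intron sequence, and the annotated intron starts of RPL22A and RPL22B shown above differ. Whether reads were divided between paralogues was not tested.

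The 6 small subunit introns with an interval below no difference had few aberrant reads. RPS23A had 11 beside 39170 annotated reads in prp8-V1860D and 29 beside 35038 in prp8-V1860N, a log2 ratio of -1.52 (-2.71 to -0.52). RPS27A had 7 and 21, RPS11B 12 and 24, RPS16A 11 and 19, RPS8B 12 and 34, and RPS23B 38 and 61. RPS8B also differed between the prp8-N1869D samples, at 0.467% and 0.209%, beside 0.121% in prp8-V1860D and 0.275% in prp8-V1860N. RPS11B stood at 0.607% and 0.482% there, beside 0.151% and 0.354%. TFC3, RPS27B and RPS9B completed the 10 lowest ratios, with intervals that include no difference. TFC3, which encodes a subunit of TFIIIC, had 10 and 24 reads.

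At the upper end few reads stood behind the ratios. GPI15, which acts in anchor synthesis for membrane proteins, had 27 aberrant beside 10 annotated reads in prp8-V1860D and 21 beside 19 in prp8-V1860N. RPS9A had 15 and 9 aberrant reads, APS3, a subunit gene of an adaptor complex, 16 and 8, the first intron of HMRA1 25 and 30, and STO1, the large subunit of the nuclear cap-binding complex, 23 and 13. All 5 were past 1.5-fold, with intervals that include no difference. IWR1, EPT1, SIM1 and RPL16A, also among the 10 highest, lay under the fold.

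RPS21B was the intron whose interval lay above no difference. It had 561 aberrant beside 11948 annotated reads in prp8-V1860D and 411 beside 10807 in prp8-V1860N, or 4.48% (4.13 to 4.86) and 3.66% (3.32 to 4.03). The log2 ratio was 0.30 (0.11 to 0.50), and the prp8-N1869D samples, at 5.02% and 6.66%, differed by a log2 of -0.43. Most of these reads, 547 and 397, began at the ATAAAA shown above, 89 nt inside the intron.

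**Figure D3:**
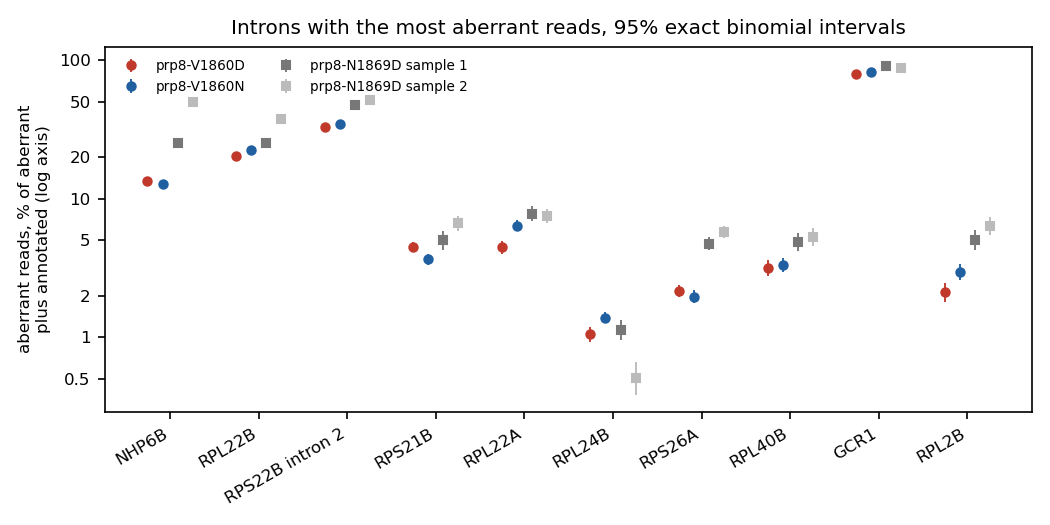
Aberrant reads as percent of aberrant plus annotated reads on a log axis for the 10 introns with the most aberrant reads, in prp8-V1860D and prp8-V1860N (circles) and the prp8-N1869D samples (squares), with exact binomial 95% intervals. In NHP6B the circles stand at 13.4% and 12.8% and the squares at 25.3% and 50.2%.

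The 10 introns with the most aberrant reads held 74.0% of them in prp8-V1860D and 72.0% in prp8-V1860N. Per 10000 annotated reads of the library, RPL22B supplied 4.32 and 6.15, RPL24B 1.32 and 2.31, NHP6B 5.67 and 6.37, the second intron of RPS22B 3.51 and 4.17, and RPL22A 1.57 and 2.18. RPS21B supplied 3.05 and 2.11 and RPS26A 1.94 and 1.65, in the other direction. Within their introns several of these hardly differed. NHP6B, a high mobility group protein gene, had 13.4% aberrant reads (12.6 to 14.2) and 12.8% (12.1 to 13.5), the second intron of RPS22B 32.9% (30.9 to 35.1) and 34.5% (32.6 to 36.4), and RPL40B, a ubiquitin fusion gene, 3.18% (2.79 to 3.60) and 3.32% (2.94 to 3.73). GCR1, a transcriptional activator of glycolytic genes, had 181 aberrant beside 46 annotated reads and 211 beside 46.

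The authors' deposited table of rates covers 13 introns. Rates in it were lower in prp8-V1860D than in prp8-V1860N in 10 introns and higher in 3, and intervals of the odds ratio computed here from the counts excluded no difference in 5 of the 10 and 0 of the 3. In the authors' deposited table RPL42A had rates of 0.243% and 0.544%, RPL28, also of the large subunit, 1.55% and 2.27%, and BMH2, which encodes a 14-3-3 protein, 0.761% and 0.914%. The 3 higher in the authors' deposited table were NHP6B, RPL21A, at 0.793% and 0.727%, and RPS26A, at 2.17% and 1.97%.

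Aberrant sites that begin with GT and those that do not went opposite ways. Per 10000 annotated reads, GT sites had 29.2 reads in prp8-V1860D and 36.8 in prp8-V1860N, a fold of 0.791 (0.764 to 0.820), beside 0.959 between the prp8-N1869D samples and 0.943 between the technical libraries. Sites without GT had 3.88 and 2.85, a fold of 1.36 (1.21 to 1.52), beside 0.833 and 1.46. Without RPS21B, a choice made after the values were seen, sites without GT had 0.901 and 0.795, a fold of 1.13 (0.905 to 1.42), so that fold rested on the RPS21B site. GT opened 88.3% of aberrant reads in prp8-V1860D (87.4 to 89.1) and 92.8% in prp8-V1860N (92.2 to 93.4). By sites, however, the intervals overlapped, at 83.5% (80.2 to 86.4) and 86.6% (83.9 to 89.1). By the number of bases shared with GTATGT, sites with 3, 4 and 5 matches had folds of 0.783, 0.774 and 0.819, with overlapping intervals. Sites with all 6 had 0.695 (0.503 to 0.956), and sites with 2, which include the RPS21B site, had 1.21 (1.09 to 1.35). Sites with 1 match had 26 and 20 reads, a fold of 1.38 (0.739 to 2.60), and sites with 0 had 9 and 14, a fold of 0.680 (0.260 to 1.69).

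Sites inside the intron and upstream of it had overlapping intervals. Per 10000 annotated reads, inside sites had 28.4 reads in prp8-V1860D and 34.7 in prp8-V1860N, a fold of 0.818 (0.789 to 0.849), beside 0.940 between the prp8-N1869D samples. Upstream sites had 4.62 and 4.98, a fold of 0.928 (0.845 to 1.02), beside 1.08. By distance, upstream sites within 100 nt of the annotated one had a fold of 0.852 (0.760 to 0.954), and those farther away 1.11 (0.941 to 1.31). Inside the intron the fold was 0.896 (0.838 to 0.959) within 100 nt, 0.785 (0.746 to 0.825) up to 300 nt and 0.798 (0.734 to 0.868) beyond. Among the 70 single sites with at least 20 reads over both strains, the 46 inside had a median log2 ratio of -0.43 and the 24 upstream 0.04. Intervals lay below no difference in 12 inside sites, above it in 2, and apart from it in 0 upstream sites. The 2 were the RPS21B site and a GGGTTT of RPL40B, 214 nt inside its intron, with 34 reads in prp8-V1860D and 20 in prp8-V1860N.

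RPL16B, which encodes a large subunit protein, held sites of both kinds. Its GTAATG 341 nt inside the intron had 22 reads in prp8-V1860D and 55 in prp8-V1860N, a log2 ratio to annotated reads of -1.39 (-2.199 to -0.67). Its upstream GTGTAT, at -999 nt from the annotated site, had 38 and 25, a log2 ratio of 0.50 (-0.26 to 1.31). Over the whole intron the aberrant share was 1.56% (1.21 to 1.97) and 2.04% (1.63 to 2.52), intervals that overlap. The main sites of the other introns shown above had 11 and 43 reads in RPL19B, 55 and 94 in RPL42A, 7 and 26 in RPS23A, 242 and 368 in RPL22A, 791 and 1191 in RPL22B, and 239 and 445 in RPL24B. The GTAAGT of NHP6B had 972 and 1170, and the GTATGC of RPS26A 303 and 270.

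The strains used largely overlapping sets of aberrant sites. Of sites with at least 3 reads, prp8-V1860D had 147 and prp8-V1860N 179, and 125 were in both, 85.03% of the first and 69.8% of the second. The replicate prp8-N1869D libraries had 119 and 132 with 96 in both, 80.7% and 72.7%. Thinned to an equal depth of 2174942 reads, prp8-V1860D had 593 aberrant sites and prp8-V1860N 679.

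The third comparison asked how many lariat reads matched no annotated pair. Unannotated reads, the aberrant ones included, made up 15.3% of reads in prp8-V1860D (15.26 to 15.35) and 14.8% in prp8-V1860N (14.76 to 14.85). Per annotated read the fold was 1.04 (1.03 to 1.04), beside 0.980 between the prp8-N1869D samples and 0.925 between the technical libraries. Its size was above that between the prp8-N1869D samples and below that between the technical libraries. At equal depth distinct unannotated sites numbered 42025 in prp8-V1860D and 41696 in prp8-V1860N. These totals held classes that differed in opposite directions.

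**Figure D4:**
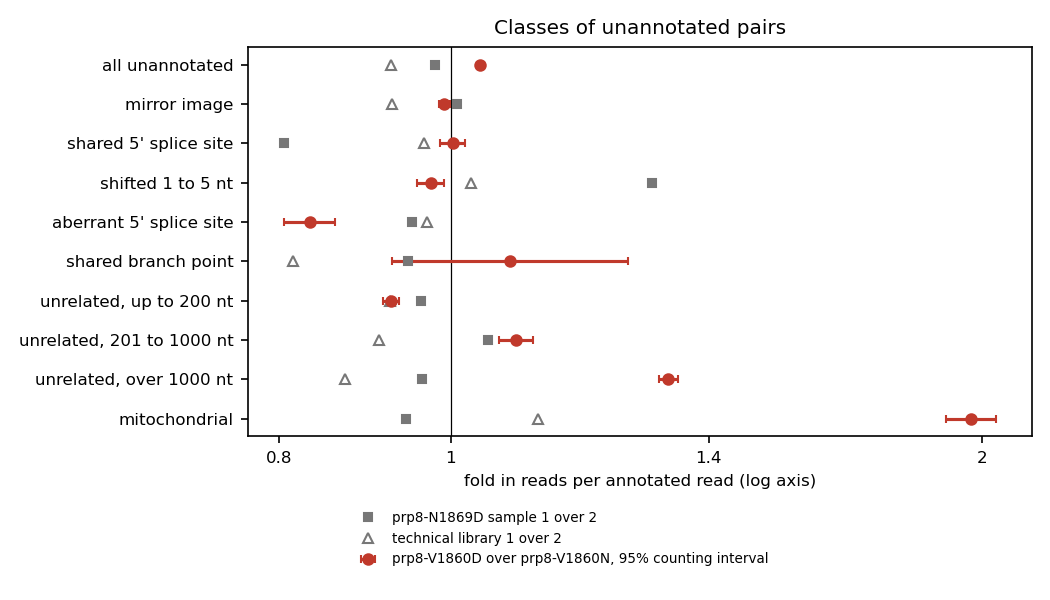
Fold in reads per annotated read (log axis) for each class of unannotated pair, as prp8-V1860D over prp8-V1860N with its 95% counting interval, beside prp8-N1869D sample 1 over sample 2 (squares) and technical library 1 over 2 (triangles). Mitochondrial pairs at 1.97 and unrelated pairs over 1000 nt at 1.33 lie farthest to the right, and aberrant 5' splice sites at 0.832 farthest to the left of the alleles.

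Mirror images, which lie on the opposite strand of an annotated intron with its ends swapped, had 6.76 reads per 100 annotated in prp8-V1860D and 6.81 in prp8-V1860N, a fold of 0.992. Strand assignment is not described in the labels or headers. Pairs with an annotated 5' splice site and another branch point had a fold of 1.003 (0.987 to 1.02), beside 0.805 between the prp8-N1869D samples. Pairs shifted by 1 to 5 nt had 0.975 (0.958 to 0.992), beside 1.30. Unrelated pairs of up to 200 nt, the length of a short intron, had 3.52 and 3.798 per 100, a fold of 0.926 (0.916 to 0.936), beside 0.963 and 0.924. Unrelated pairs of over 200 and up to 1000 nt had a fold of 1.09 (1.07 to 1.11), beside 1.05 and 0.911. None of these classes separated the alleles by more than the larger of its replicate differences. The best read mirror image, antisense to SNR17A, had 9641 reads in prp8-V1860D and 11230 in prp8-V1860N, and the best read shifted pair, of RPS30B, 2555 and 3599. Another branch point of RCF3 had 4686 and 4870, and one of PTC7, a phosphatase gene, 3335 and 3199.

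Pairs over 1000 nt apart that share no end with an annotated intron were more frequent in prp8-V1860D. They had 57367 reads in prp8-V1860D and 45713 in prp8-V1860N, or 3.11 and 2.34 per 100 annotated reads, a fold of 1.33 (1.31 to 1.34). The prp8-N1869D samples, at 4.77 and 4.95 per 100, stood above both strains and gave 0.964. The technical libraries gave 0.872, and PRP8-WT had 1.34 per 100. At equal depth they numbered 15212 and 13661 distinct pairs. The branch base was A in 31.6% of their reads (31.2 to 32.0) and 31.0% (30.6 to 31.4), whereas A was the branch base of 69.7% of reads in both strains when the ends lay at most 200 nt apart. GT opened 83.7% (83.4 to 84.0) and 83.1% (82.7 to 83.4) of the long pairs.

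The higher level of long pairs was spread over many of them. Of 218 with at least 50 reads, 176 lay above equality and 42 below it, and their median log2 ratio was 0.49. That minimum was summed over the 2 libraries compared, so pairs with many reads in prp8-V1860D met it more easily. Long pairs with 1 read over both libraries had a fold of 1.14 (1.11 to 1.18), those with 2 to 49 reads 1.23 (1.204 to 1.26) and those with 50 or more 1.48 (1.45 to 1.505), where the prp8-N1869D samples gave 1.12, 1.06 and 0.874. The sets were formed by reads in the aspartate and asparagine libraries. The prp8-N1869D values are therefore not replicate folds of pairs with those numbers of reads, and they give no spread for each set. The pair with the most reads joins a site antisense to RPL31A, a large subunit protein gene, to VAM6, a gene of vacuolar traffic (chromosome IV, 322466 to 317772, minus), with 7343 and 4211 reads. Without it, a choice made after the values were seen, the fold was 1.28 (1.26 to 1.29). Pairs with an end in the ribosomal DNA had 624 and 526 reads, a fold of 1.26 (1.12 to 1.41), so they were a small part.

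Mitochondrial pairs differed most. They had 10485 reads in prp8-V1860D and 5630 in prp8-V1860N, or 0.569 and 0.289 per 100 annotated reads, a fold of 1.97 (1.91 to 2.04). The prp8-N1869D samples, at 0.407 and 0.431 per 100, gave 0.944, and the technical libraries gave 1.12. Both strains stood above PRP8-WT, at 0.185 per 100, and the prp8-N1869D samples lay between them. The fold was 1.78 (1.70 to 1.86) on the plus strand and 2.19 (2.09 to 2.30) on the minus strand, 2.15 for pairs of up to 200 nt and 1.88 for those over 1000 nt, and 1.73 with GT and 2.25 without. The mitochondrial genome is not spliced by the spliceosome, and whether these pairs are lariats was not tested. The quantity of mitochondrial RNA in the libraries was not analysed here.

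**Figure D5:**
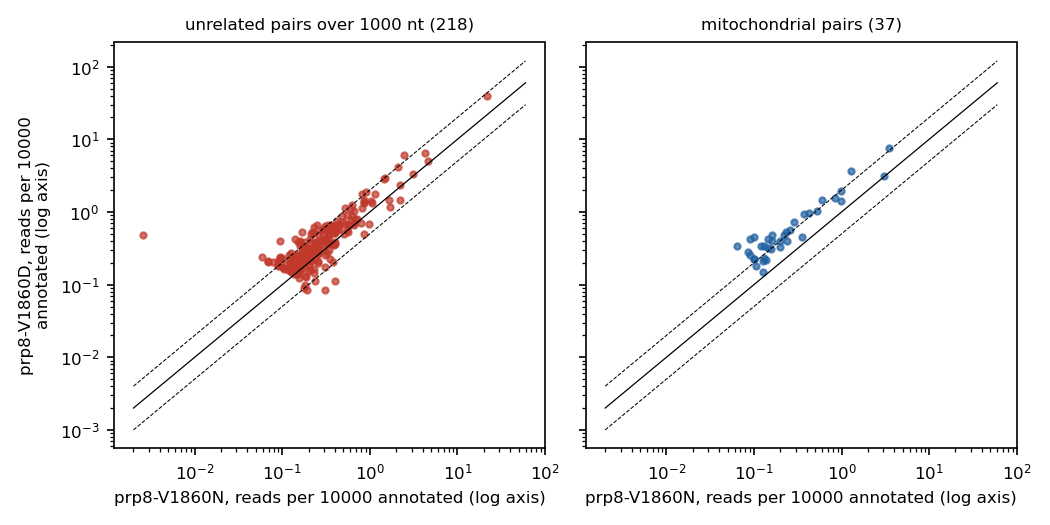
Reads per 10000 annotated reads, with 0.5 reads added, in prp8-V1860D against prp8-V1860N on log axes, for the 218 unrelated pairs over 1000 nt (left) and the 37 mitochondrial pairs (right) with at least 50 reads over both. The solid line marks equality and dashed lines 2-fold, and all 37 mitochondrial pairs lie above the solid line. Pairs with many reads in prp8-V1860D met the minimum of 50 reads more easily.

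Single pairs past the fold lay mostly in the same classes. Of 1228 unannotated pairs with at least 50 reads, 79 were at least 2-fold higher in prp8-V1860D, 6.43%, and 25 at least 2-fold lower, 2.04%. Between the prp8-N1869D samples it was 80, 8.32%, and 54, 5.62%, of 961, and between the technical libraries 4, 0.723%, and 32, 5.79%, of 553. Of the 79, 34 were long pairs, out of 218, and 23 were mitochondrial, out of 37, and 0 of the 35 aberrant pairs were past 2-fold in either direction. All 37 mitochondrial pairs were higher in prp8-V1860D, 31 with an interval apart from no difference. They had passed a minimum of 50 reads summed over these 2 libraries, which pairs with many reads in prp8-V1860D met more easily. Their shared direction is therefore no support separate from the class total.

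The highest ratios included 4 mitochondrial pairs, such as a pair from ATP6, the gene of an ATP synthase subunit (MT, 29113 to 29343, plus), with 77 reads in prp8-V1860D and 17 in prp8-V1860N, and one from COX1, a subunit gene of cytochrome oxidase (24643 to 29343, plus), with 83 and 19. Both also varied between the prp8-N1869D samples, the ATP6 pair with 2 and 33 reads and the COX1 pair with 9 and 40. A pair antisense to the ribosomal DNA (chromosome XII, 455489 to 460041, plus) had 87 reads in prp8-V1860D and 0 in prp8-V1860N, at least 30.7-fold higher against a floor of 3 reads. It had 0 in PRP8-WT and in the first prp8-N1869D sample and 1 in the second, and 5 in prp8-V1870N, another allele of the series. A 50 nt pair in YBR062C (chromosome II, 366580 to 366530, minus) had 86 and 15 reads, but 12 and 70 in the prp8-N1869D samples. The first intron of VMA9, a vacuolar ATPase subunit gene, had a site shifted by a few bases, GTTTGT at 107030 on chromosome III, with 51 and 12. Others among the 10 lay at ECM33, RPL35A and VAM6, with 73 and 18, 44 and 11, and 96 and 32 reads.

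At the other end, a pair from POX1, a gene of fatty acid oxidation, to a transfer RNA gene (chromosome VII, 109082 to 110657, plus) had 15 reads in prp8-V1860D and 59 in prp8-V1860N. It had 180 and 385 in the prp8-N1869D samples. A pair antisense to PAN1, an endocytosis gene (chromosome IX, 365867 to 370479, plus), had 20 and 78, and a 208 nt pair that ends in ADE2 had 19 and 59. The other low pairs belonged to annotated introns of RPS8B, RPL26B, RPS26B and RPS0B, or were mirror images of the introns of RPS29A and VPS29. Each had between 14 and 28 reads in prp8-V1860D.

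Among pairs of up to 200 nt, the best read differed in both directions. A pair in BDF2, a bromodomain protein gene with no annotated intron in these tables (chromosome IV, 331189 to 331277, plus; GTAAGT and CACTAAC), had 3900 reads in prp8-V1860D and 5716 in prp8-V1860N, a fold of 0.722 (0.693 to 0.752). The same 5' splice site joined 1 nt nearer had 1234 and 2136, a log2 ratio of -0.71 (-0.81 to -0.61), beside 0.07 between the prp8-N1869D samples and 0.12 for the better read pair. A pair outside genes on chromosome VII (383486 to 383552, plus; GTATGT and TATTAAC) had 5039 and 4266, a fold of 1.25 (1.20 to 1.30). That pair had a log2 ratio of 0.32, beside -0.32 between the prp8-N1869D samples, so the replicate samples lay as far apart. Its 5' splice site joined 1 nt nearer had 2558 and 2715 reads, a log2 ratio of -0.004. Of the 177 unrelated pairs of up to 200 nt with at least 50 reads, 153 began with GT, 102 had an A at the branch and 93 had both. At least 2-fold higher were 2, 1.13%, and lower 4, 2.26%, beside 6.43% and 2.04% over all 1228 unannotated pairs.

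The last comparison asked whether the allele moved the branch point. Reads at the exact annotated position were 43.7% of annotated reads in prp8-V1860D (43.6 to 43.8) and 42.4% in prp8-V1860N (42.3 to 42.4). PRP8-WT stood at 42.4% (42.36 to 42.47). The first prp8-N1869D sample had 42.5% (42.4 to 42.6) and the second 43.05% (42.96 to 43.14). The aspartate library was the highest of these, and its gap to the asparagine library was larger than that between the prp8-N1869D samples. These shares are pooled over introns whose reads differed between libraries and were not weighted by intron. Whether branch points moved within introns was therefore not tested by them. Reads of an annotated 5' splice site joined to another branch point were 1.57% (1.55 to 1.58) and 1.56% (1.54 to 1.58). Among 75 introns with at least 100 such reads, 3 were at least 1.5-fold higher in prp8-V1860D and 3 lower, with a median log2 odds ratio of -0.05. Counting intervals lay below no difference in 11 of the 75 and above it in 6. No such count between the prp8-N1869D samples is given here.

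MCR1, the gene of a mitochondrial NADH-cytochrome b5 reductase, was singled out after its values were seen. Its intron lies upstream of the coding sequence, begins at 166400 on chromosome XI, plus strand, and has branch sequences about 22 nt apart, of which the one nearer the 5' splice site is annotated. They are shown with the branch base at position 9 and the 7 bases of the branch sequence in capitals.
MCR1 annotated branch (166474): caaTACTAACgtt
MCR1 other branch (166496): ccaAACTAACaat
Branch points other than the annotated one took 1128 of its reads beside 606 annotated ones in prp8-V1860D, or 65.1% (62.8 to 67.3), and 925 beside 786 in prp8-V1860N, or 54.1% (51.7 to 56.4). PRP8-WT stood at 53.3% (51.3 to 55.3) and the replicate samples of prp8-N1869D at 50.3% (47.0 to 53.6) and 49.95% (46.9 to 53.0). The aspartate library was thus the highest of these and the replicate samples lay together. RPL26B went the other way, with 258 reads at other branch points in prp8-V1860D and 376 in prp8-V1860N, or 4.12% and 5.85%, beside 7.09% and 6.80%. VMA10, a vacuolar ATPase subunit gene, had 69 and 40, or 2.89% and 1.55%, beside 1.87% and 1.19%.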

How the data were processed

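The deposited tables hold counts of lariat reads, made by the authors for each combination of 5' splice site with branch point and for each annotated intron. Per the submitters' processing notes, Trimmomatic, Bowtie2 and build R64 were used; the sources used here give no versions, no strand assignment and no handling of reads that fit several places. Rates for 13 introns were deposited by the authors as fractions (aberrant reads divided by the sum of aberrant and annotated ones), and are printed as percent.

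Groups came from the labels. From the deposited counts, shares were taken over annotated reads, log2 ratios with 0.5 reads added, and exact 95% binomial, ratio and odds ratio intervals, which cover counting error only, since reads have no molecular identifiers. Sites were thinned to the smaller depth by the hypergeometric expectation. The 2 technical prp8-N1869D libraries were summed as 1 sample. Recomputed aberrant counts equalled the deposited ones in 172 of 174 introns of prp8-V1860D and 182 of 183 of prp8-V1860N. Another 64 columns of per-sample values were not used. In the RefSeq reference of build R64, 279 of the 280 annotated introns began with GT.

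Members and gene lists were chosen with earlier results of these data known. Named were the 10 highest and 10 lowest introns by share (at least 50 reads) and by aberrant ratio (at least 20 aberrant reads), the 10 with the most aberrant reads, the introns of the authors' table, the 10 highest, lowest and most read unannotated pairs (at least 50 reads), and up to 4 members of each list. The RPL16B sites, MCR1, VMA10 and the printed sequences were chosen after their values were seen. Alternatives covered scaling (TMM in edgeR 4.0.16, size factors in DESeq2 1.42.0, both for scaling of counts alone, in R 4.3.3), minimum reads, pseudocounts, folds, denominators and left-out sites, introns or libraries. Python 3.11.15 was used with matplotlib 3.10.9, scipy 1.17.1, pandas 2.3.3 and numpy 2.4.6, and the calculations were tested on simulated data.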

Additional observations from a re-analysis of the deposited data

How the results depend on the processing

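Of 53 alternatives 25 left the value within its counting interval or the count within 1.5 times. Reads per annotated read in unannotated pairs, 1.04-fold as reported, stood at 1.07 without mirror images, at 1.01 with introns outside ribosomal protein genes as denominator, and at 0.976 without mitochondrial pairs and pairs over 1000 nt, which reverses it. Distinct sites, 1.01, reversed to 0.923 without those pairs. The aberrant rate, 0.833, stayed below 1 in all 8 alternatives: 0.798 when the 5 introns richest in aberrant reads were left out, 0.780 at exact branch points and, chosen after seeing the data, 0.799 without RPS21B, 0.792 with GT sites and 0.910 with introns weighted alike. Long pairs, 1.33, stood at 1.37 with at least 2 reads a pair and 1.28 without the pair with the most reads. Introns higher and lower in share, 5 and 6, numbered 12 and 13 with no minimum, 0 and 0 at 2-fold, and 3 and 0 with 1000 reads in each library, a limit chosen after seeing the data. Introns higher and lower in aberrant ratio, 5 and 14, numbered 1 and 5 with 50 aberrant reads, 2 and 8 at 2-fold, and 0 and 8 where the interval also had to exclude no difference, with 3 higher where 100 annotated reads were asked in each library. Unannotated pairs higher and lower, 79 and 25, numbered 15 and 1 with 200 reads, and 22 and 21 without long and mitochondrial pairs, chosen after seeing the data. Leaving out each technical library in turn gave 26 to 29 introns higher and 8 to 19 lower in prp8-N1869D sample 1, against 23 and 8. No paired analysis was possible because each strain has 1 library and the labels give the strains no shared replicate numbers.

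Each of the aspartate and asparagine strains has 1 library, so strain, culture and library cannot be told apart. The prp8-N1869D libraries that give the spread are of another strain and are shallower, which widens their counting error. Introns with under 20 aberrant reads were not compared one by one, since their counting intervals are wide.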
